A study of Mus musculus with 36 samples.

Results

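The immediate early response genes are 32 genes known for being induced within minutes of a stimulus, before new protein is made. They were chosen by name: a probe set counted if the platform's annotation gave it 1 of these 32 symbols, and where a gene had several, the brightest on average over the 36 arrays stood for it. All 32 had a probe set, out of 18193 genes named on the array, and 28 were bright enough to be tested. Fosb, Atf3, Nr4a3 and Dusp5 were not, since their means lay below the median of all probe sets (log2 2.89).

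The data came from the peripheral blood of 18 male mice aged 8 weeks, 3 from each of 6 inbred strains: 129S1/ImJ, FVB/NJ, A/J, DBA/2J, C57Bl/6J and C3H/HeJ. Each mouse gave 1 array of GLOBINclear RNA, from which alpha and beta globin mRNA had been captured and removed, and 1 array of whole RNA from the same extract, 36 arrays in 12 groups. The study asked how globin mRNA affects array measurements of mouse blood. All mice carried the genotype of their strain and had no treatment beyond isoflurane anaesthesia; blood was taken from the heart by puncture, passed through EDTA into Trizol and frozen. The strain is 129S1/ImJ in the sample labels and 129S1/SvImJ in the protocol text. Values are log2 expression summaries as deposited, 1 per probe set and array, and levels of different genes are not comparable because probe sets differ in binding.

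Immediate early genes are switched on by transcription factors that already sit in the resting cell, chiefly serum response factor, CREB and NF-kappaB, once kinase cascades activate them. Their mRNAs are short-lived, and many of their proteins turn the response off again: dual-specificity phosphatases dephosphorylate MAP kinases, Zfp36 and the Btg proteins speed mRNA decay, and Nfkbia and Tnfaip3 restrain NF-kappaB. In blood they are known to respond to activation of leukocytes and platelets and to handling of cells after collection, so they are watched as signs of both.

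Of the 32 genes, 26 had a promoter sequence in the RefSeq table used (build GRCm38.p6), here the 250 bases before the gene's start; Egr1, Egr3, Ier2, Nfkbiz, Cd69 and Myc had none there. Motifs were searched on both strands. TGACG, the core of the CREB site, stood in 15 of the 26 (57.7%), against 19.8% of all 27025 genes in the table. The complete palindrome TGACGTCA, which contains TGACG in both directions, stood in 3 of 26 (11.5%; Dusp1, Btg2 and Ppp1r15a), against 1.77% of all genes. The CArG box of serum response factor stood in 3 of 26 (11.5%; Egr2, Dusp5 and Zfp36), against 1.62%. A match is a run of letters, not a measured binding site. The promoters of 4 genes that recur below are shown, with TGACG matches, TGACGTCA or the CArG box in capitals. Dusp1 (chr17:26508473-26508722, minus strand) and Btg2 (chr1:134079156-134079405, minus strand) are 2 of the 3 with the palindrome. Fos (chr12:85473640-85473889, plus strand) and Zfp36 (chr7:28379229-28379478, minus strand) were both highest in the mouse 129S1/ImJ replicate 3 in each preparation.
Dusp1: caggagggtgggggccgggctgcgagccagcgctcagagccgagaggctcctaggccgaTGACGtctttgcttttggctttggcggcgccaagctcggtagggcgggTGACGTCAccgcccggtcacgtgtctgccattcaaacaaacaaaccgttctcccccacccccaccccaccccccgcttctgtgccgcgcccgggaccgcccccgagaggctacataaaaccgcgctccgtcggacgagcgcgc
Btg2: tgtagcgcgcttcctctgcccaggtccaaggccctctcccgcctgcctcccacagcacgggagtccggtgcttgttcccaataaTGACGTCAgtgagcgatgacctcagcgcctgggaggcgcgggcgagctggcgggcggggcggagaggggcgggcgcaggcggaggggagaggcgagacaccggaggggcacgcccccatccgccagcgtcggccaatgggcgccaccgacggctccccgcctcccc
Fos: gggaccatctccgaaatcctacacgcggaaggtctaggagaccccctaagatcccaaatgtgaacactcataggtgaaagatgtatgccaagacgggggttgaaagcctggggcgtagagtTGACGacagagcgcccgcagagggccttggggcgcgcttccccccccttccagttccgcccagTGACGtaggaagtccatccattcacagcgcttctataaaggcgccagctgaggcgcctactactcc
Zfp36: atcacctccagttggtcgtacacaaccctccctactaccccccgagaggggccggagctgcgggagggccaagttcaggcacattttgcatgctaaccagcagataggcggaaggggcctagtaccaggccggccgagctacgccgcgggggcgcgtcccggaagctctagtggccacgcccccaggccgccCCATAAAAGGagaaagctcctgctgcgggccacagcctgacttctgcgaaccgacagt
The palindrome began at position -143 in Dusp1 and at -166 in Btg2, counting back from the start. Fos held TGACG at -129 and -66, and Zfp36 held a CArG box at -58.

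On the arrays as a whole, 3802 to 5278 probe sets reached log2 5 on a GLOBINclear array and 2196 to 3122 on a whole RNA array. Markers of red cells averaged 10.84 to 11.80 per GLOBINclear array and 10.14 to 11.35 per whole RNA array, and those of platelets 10.59 to 11.84 and 8.91 to 10.80, so the labelled blood's defining cells were present. The 3′ minus 5′ difference of the Actb and Gapdh control sets averaged 1.17 ± 0.20 (SD, n = 18) in GLOBINclear RNA and 0.13 ± 0.18 in whole RNA. The hybridization spike-ins averaged 9.50 on GLOBINclear and 11.58 on whole RNA arrays. Both moved with the preparation in the results below, and their part in them was not tested. Nothing in the labels gives a scan or extraction batch. Because blood was measured in bulk, fewer cells of a type and less RNA per cell cannot be told apart. A mouse, 129S1/ImJ replicate 3, stood apart for these genes, so the strain results are given with and without it. Shares of all tested probe sets were counted with all 18 mice and the main settings only. Counts without that mouse therefore have no share beside them.

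Most of these genes were dim in blood. The mean over the 36 arrays was at or below log2 3.5 for 14 of the 32, where 77.6% of all probe sets on the array lay, and at or below log2 4 for 20 of the 32 (86.6% of all). Only Jund, Gadd45a, Btg1, Nfkbia and Ppp1r15a averaged above log2 7. The untested genes lay low, and each was lower in GLOBINclear RNA in most mice: Dusp5 in 18 of 18, Nr4a3 in 17, Fosb in 16 and Atf3 in 15. The mean differences were small, from -0.17 in Dusp5, where the preparations did not overlap, to -0.04 in Atf3. Among tested probe sets at or below log2 3.5, 66.6% fell as well. Fosb, a partner of Jun proteins in the AP-1 dimer, lay at 2.21 to 2.39 in GLOBINclear RNA and 2.29 to 2.38 in whole RNA. Nr4a3, an orphan nuclear receptor, lay at 2.55 to 2.75 and 2.61 to 2.82. Dusp5, a nuclear phosphatase of ERK, lay at 2.39 to 2.66 and 2.67 to 3.16. Atf3, a stress-induced repressor of the ATF/CREB family, lay at 2.59 to 3.29 and 2.65 to 3.36, and its highest array in each preparation came from 129S1/ImJ replicate 3.

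**Figure D1:**
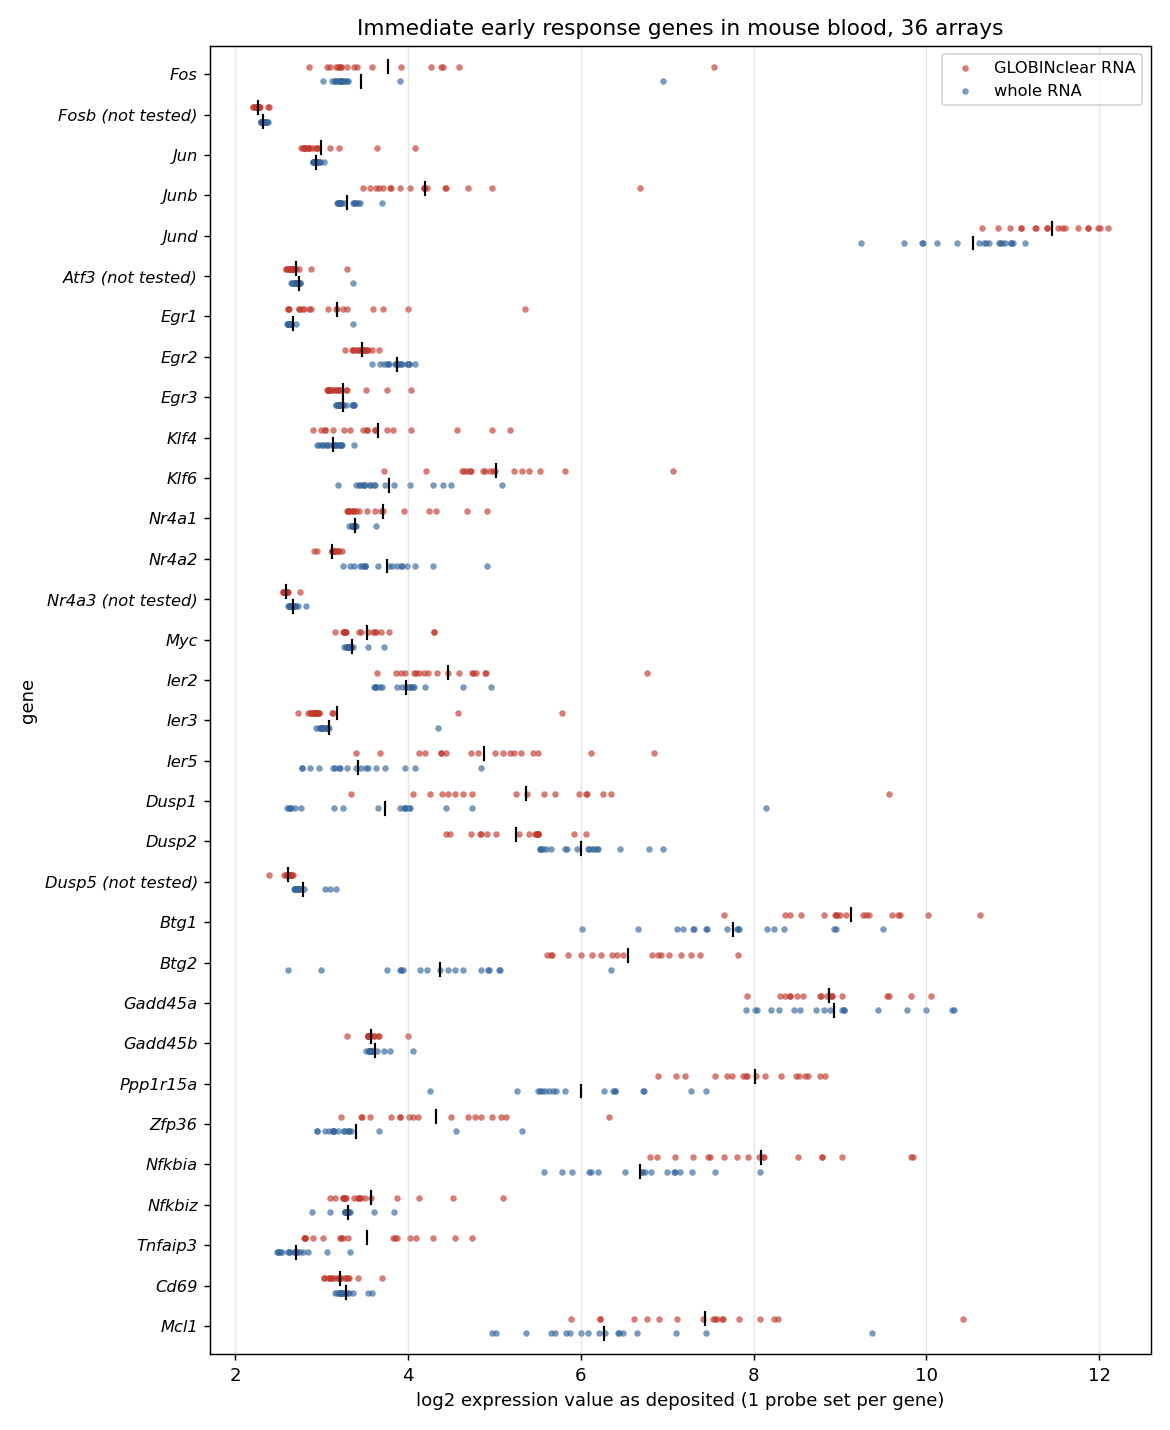
Log2 expression values (horizontal) of the 32 genes (rows, 1 probe set each) on 18 GLOBINclear arrays (red, upper line of each gene) and 18 whole RNA arrays (blue, lower line); black ticks are means. In GLOBINclear RNA Btg2 and Ppp1r15a shift furthest to the right, and Nr4a2 lies to the left without overlap. The Fos points far to the right, at 7.54 and 6.95, belong to 129S1/ImJ replicate 3. Outlying points of other genes can belong to other mice, as for Egr1 at 5.35 in C57Bl/6J replicate 1.

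The first comparison asked how removing globin mRNA changed the measured level of each gene. By limma with the mouse as a block, 19 of the 28 tested genes rose in GLOBINclear RNA, against 39.4% of all 22518 tested probe sets, 3 fell, against 47.6%, and 6 did not pass (Jun, Egr3, Ier3, Gadd45a, Gadd45b and Cd69). Of those that rose, 8 did so at least 2-fold (18.2% of all tested probe sets): Btg2, Ppp1r15a, Dusp1, Ier5, Nfkbia, Btg1, Klf6 and Mcl1. Egr1 and Tnfaip3, counted among the 19, averaged 2.67 and 2.70 in whole RNA, below the test limit of log2 2.89. They passed that limit only through their GLOBINclear arrays, where they were higher, so the count of 19 depends in part on the limit. With no such limit the calls of all 28 stayed the same. The median log2 change was 0.50 over the tested members and -0.05 over all tested probe sets. The change moved with level on these arrays: the median of all tested probe sets was -0.15 at mean levels up to log2 3.5, 0.33 from 3.5 to 5, 1.43 from 5 to 7, 1.36 from 7 to 9 and 0.89 above 9. The members' medians in these classes were 0.13 (n = 10), 0.69 (n = 10), 1.17 (n = 3), 1.38 (n = 4) and 0.92 (n = 1). In no tested member did all 18 GLOBINclear arrays lie above all 18 whole RNA arrays (4.83% of all tested probe sets), and in 1, Nr4a2, all lay below (12.6%).

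**Figure D2:**
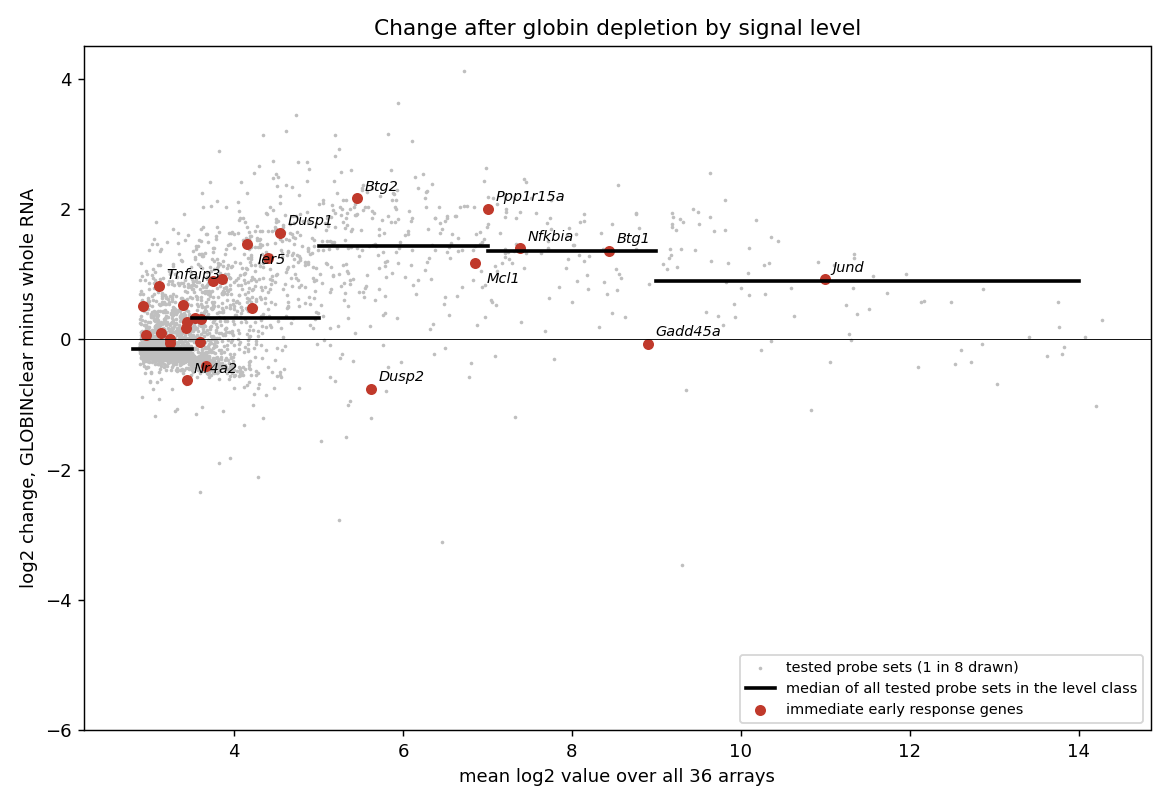
Log2 change, GLOBINclear minus whole RNA (vertical), against the mean log2 value over all 36 arrays (horizontal); grey points are 1 in 8 of the tested probe sets, black lines the median of all tested probe sets in each level class, and red points the 28 tested immediate early genes. Btg2 and Ppp1r15a lie above the line of their class, while Gadd45a and Dusp2 lie well below theirs.

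Among the AP-1 genes, whose products pair up to bind DNA, Jund, the member most active in resting cells, was the brightest. It ranged from 10.64 to 12.10 in GLOBINclear RNA, median 11.46, and from 9.25 to 11.14 in whole RNA, median 10.70. The ranges overlapped, but each mouse was higher in GLOBINclear RNA, by 0.92 ± 0.08 (SE) on average (limma adjusted p = 1.25e-09). Junb, which restrains growth in myeloid cells, lay at 3.48 to 6.69, median 4.10, in GLOBINclear RNA and at 3.18 to 3.70, median 3.22, in whole RNA. It was higher in 18 of 18 mice (0.90 ± 0.14, limma adjusted p = 8.29e-06). Fos, the partner induced first by serum, differed by 0.31 ± 0.10 (limma adjusted p = 0.00868) and was higher in 13 of 18 mice, while Jun, at 2.75 to 4.08 and 2.90 to 3.02, changed by 0.06 ± 0.07 (adjusted p = 0.411).

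Of the other transcription factors, Klf6, a zinc finger factor of myeloid cells, rose by 1.24 ± 0.09 (limma adjusted p = 2.24e-10), in 18 of 18 mice, with means of 5.02 in GLOBINclear RNA and 3.78 in whole RNA. Klf4, which drives monocyte differentiation, rose by 0.53 ± 0.15, in 13 of 18 mice, and Egr1, a serum-induced zinc finger factor, by 0.51 ± 0.12, in 16 of 18. The whole RNA mean of Egr1, 2.67, lay below the test limit. Nr4a1, a nuclear receptor induced by antigen receptor signals, rose by 0.33 ± 0.11, and Myc, a factor of cell growth, by 0.17 ± 0.08 (limma adjusted p = 0.0402), in 10 of 18 mice.

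Egr2 and Nr4a2 went the other way. Egr2, an Egr1 relative, lay at 3.27 to 3.66, median 3.47, in GLOBINclear RNA and at 3.58 to 4.08, median 3.88, in whole RNA. The ranges met only at their ends, and each of the 18 mice was lower in GLOBINclear RNA (-0.40 ± 0.03, limma adjusted p = 5.67e-10). Nr4a2, the second receptor of its family, lay at 2.91 to 3.24, median 3.13, in GLOBINclear RNA and at 3.25 to 4.92, median 3.71, in whole RNA. The arrays of the preparations did not overlap (-0.63 ± 0.09, limma adjusted p = 2.78e-06). The other 4 tested Nr4a2 probe sets and the other Egr2 set were lower as well, by -0.37 to -0.12 and by -0.24. Both genes are dim. In the level class of Nr4a2 (up to log2 3.5) 66.6% of all tested probe sets fell, and in that of Egr2 (3.5 to 5) 32.6%.

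Among the Ier genes, named for immediate early response, Ier5, a regulator of the heat shock factor Hsf1, lay at 3.39 to 6.85, median 4.91, in GLOBINclear RNA and at 2.77 to 4.84, median 3.34, in whole RNA. It rose in 18 of 18 mice, by 1.46 ± 0.12 (limma adjusted p = 1.53e-09), but its other tested probe sets, at means of 3.16 and 3.00, fell, with changes of -0.20 and -0.15. Ier2 rose by 0.48 ± 0.13 (limma adjusted p = 0.00206) in 15 of 18 mice. Ier3, an inhibitor of apoptosis, did not pass (0.09 ± 0.11, adjusted p = 0.445).

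Btg2 and Ppp1r15a had the largest changes of the 28. Btg2, an antiproliferative protein that recruits the Ccr4-Not deadenylase, lay at 5.61 to 7.82, median 6.45, in GLOBINclear RNA and at 2.61 to 6.35, median 4.41, in whole RNA. It was higher in every mouse after depletion, by 2.17 ± 0.09 (limma adjusted p = 2.81e-14), and its other probe set rose by 1.04. Ppp1r15a, the GADD34 subunit that lets protein phosphatase 1 undo the stress block of translation, lay at 6.89 to 8.82, median 7.97, in GLOBINclear RNA and at 4.25 to 7.45, median 5.76, in whole RNA. Its change was 2.01 ± 0.11 (limma adjusted p = 9.68e-13), in 18 of 18 mice.

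Dusp1, a phosphatase that inactivates p38 and JNK, lay at 3.34 to 9.56, median 5.31, in GLOBINclear RNA and at 2.60 to 8.14, median 3.77, in whole RNA. The ranges overlapped widely because mice differed, yet each mouse was higher in GLOBINclear RNA, by 1.64 ± 0.09 (limma adjusted p = 1.11e-12). Btg1, the relative of Btg2 that is abundant in resting lymphocytes, lay at 7.66 to 10.62, median 9.03, in GLOBINclear RNA and at 6.01 to 9.50, median 7.74, in whole RNA. It too was higher in all 18 mice, by 1.36 ± 0.08 (limma adjusted p = 4.95e-12), and its other probe sets rose by 1.30 and 0.95. Dusp2, a nuclear MAP kinase phosphatase of activated leukocytes, fell. It lay at 4.44 to 6.06, median 5.44, in GLOBINclear RNA and at 5.53 to 6.95, median 6.02, in whole RNA. It was lower in 17 of 18 mice (-0.76 ± 0.14, limma adjusted p = 4.91e-05).

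The NF-kappaB restraints rose: Nfkbia by 1.40 ± 0.12 (limma adjusted p = 2.06e-09), with means of 8.08 in GLOBINclear RNA and 6.69 in whole RNA. Tnfaip3 rose by 0.82 ± 0.11, from a whole RNA mean of 2.70 that lay below the test limit. Nfkbiz, an atypical inhibitor that also co-activates, rose by 0.27 ± 0.09 in 11 of 18 mice. Zfp36, which binds AU-rich mRNAs for decay, rose by 0.93 ± 0.13, in 17 of 18 mice, with means of 4.32 and 3.39. Mcl1, a short-lived survival protein of the Bcl2 family, rose by 1.17 ± 0.08 (limma adjusted p = 5.82e-11) in 18 of 18 mice, and its other 5 probe sets rose by 0.82 to 2.42. Gadd45a, a growth arrest protein, was bright and did not pass (8.87 ± 0.56 in GLOBINclear RNA, 8.93 ± 0.76 in whole RNA, adjusted p = 0.447). Neither Gadd45b nor Cd69, an early marker of activated lymphocytes, passed, at 3.57 ± 0.13 and 3.21 ± 0.16 in GLOBINclear RNA, against 3.61 ± 0.13 and 3.28 ± 0.11 in whole RNA.

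A second probe set of Jun and one of Gadd45b fell, with changes of -0.15 and -0.10, and 1 other set of Klf4, 2 of Klf6 and 1 of Nfkbia did not pass while the representing sets rose. With all arrays quantile normalized, Mcl1 turned to -0.18, the change of Ier2 was -0.05 and did not pass, the calls of Fos, Jund, Myc, Btg1 and Nfkbia were lost, and Gadd45a fell by 1.26 (limma adjusted p = 1.59e-12). With arrays centred on the hybridization spike-ins, which adds about 2.08 to the change of every probe set, those of Egr2, Dusp2 and Nr4a2 became 1.67, 1.32 and 1.45, as any fall smaller than that shift must. Btg2, Ppp1r15a and Dusp1 rose under each of the alternatives run.

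Asked whether the change differed between strains, limma's interaction test called 0 of the 28 tested genes, against 2.75% of all tested probe sets. An unadjusted p under 0.05 was reached by 5, a count that was not set against all tested probe sets. The smallest p was that of Nr4a1 (adjusted p = 0.0981), followed by Mcl1 (0.139). Within single strains, 17 rose in 129S1/ImJ (32.1% of all tested probe sets), 11 in A/J (24.6%), 13 in C3H/HeJ (28.7%), 11 in C57Bl/6J (30.3%), 12 in DBA/2J (30.4%) and 10 in FVB/NJ (27.9%).

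The next comparison asked which of these genes differed between strains. An F test in limma across all 6 strains called 4 of 28 in GLOBINclear RNA (11.2% of all tested probe sets) and 1 of 28 in whole RNA (4.32%). The 4 were Gadd45a, Nr4a1, Btg1 and Ppp1r15a, while Gadd45a was the 1 in whole RNA. Ier5 (adjusted p = 0.0552) and Dusp1 (0.066) came next in GLOBINclear RNA, and Dusp2 (0.076) and Jund (0.0985) in whole RNA, and did not pass. The call of Ppp1r15a (adjusted p = 0.0498) was lost in 21 of the 28 alternatives run and that of Btg1 (0.0256) in 6 of 28. Without 129S1/ImJ replicate 3 the F test called 3 in GLOBINclear RNA, Gadd45a (adjusted p = 0.00958), Nr4a1 (0.014) and Egr3, while Btg1 (0.0676) and Ppp1r15a (0.134) did not pass, and it called Gadd45a alone in whole RNA (0.0173). The shares of all tested probe sets called without that mouse were not counted.

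Gadd45a stood highest in C57Bl/6J, at 9.56, 9.82 and 10.05 in GLOBINclear RNA and 10.29, 9.77 and 10.32 in whole RNA. It stood lowest in 129S1/ImJ, at 7.92, 8.37 and 8.42 in GLOBINclear RNA and 7.91, 8.47 and 8.02 in whole RNA. In GLOBINclear RNA the strain means (SD, n = 3 each) ran from 9.81 ± 0.24 in C57Bl/6J through 9.08 ± 0.41 in FVB/NJ, 8.78 ± 0.32 in A/J, 8.75 ± 0.17 in C3H/HeJ and 8.55 ± 0.28 in DBA/2J to 8.24 ± 0.27 in 129S1/ImJ. C57Bl/6J and FVB/NJ met at 9.56 and 9.55, and every other strain overlapped with its neighbours in this order. The F test gave an adjusted p of 0.00739 in GLOBINclear RNA and 0.00833 in whole RNA (limma). With both arrays of each mouse averaged, C57Bl/6J exceeded the other 5 strains by 1.28 ± 0.20 (SE; limma adjusted p = 0.00108; 1.29 ± 0.20 without 129S1/ImJ replicate 3), its 3 mice lying at 9.80 to 10.19 and the other 15 at 7.91 to 9.77 (all 3 above the rest for 1.3% of all tested probe sets). This made Gadd45a the 1 gene of the 28 called higher in C57Bl/6J, against 3.87% of all tested probe sets, and none was called lower (1.93%).

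Ppp1r15a, like Gadd45a, was lower in 129S1/ImJ. There it had 7.11, 7.55 and 6.89 in GLOBINclear RNA and 4.25, 5.26 and 5.50 in whole RNA, against 7.21 to 8.82 and 5.52 to 7.45 in the other strains. On mouse averages 129S1/ImJ lay lower by -1.10 ± 0.27 (limma adjusted p = 0.0263), its 3 mice at 5.68 to 6.41 and the other 15 at 6.44 to 8.14 (all 3 below the rest for 1.05% of all tested probe sets). In C57Bl/6J Ppp1r15a averaged 8.55 ± 0.26 in GLOBINclear RNA and 6.85 ± 0.55 in whole RNA, but the difference from the other strains did not pass (0.83 ± 0.27, adjusted p = 0.0961). Platelet markers averaged 11.60 in C57Bl/6J and 10.78 in 129S1/ImJ in GLOBINclear RNA, against 10.71 in A/J, 10.95 in C3H/HeJ, 11.25 in DBA/2J and 11.46 in FVB/NJ. In the same RNA Ppp1r15a averaged 8.50 in A/J and 7.70 in DBA/2J. Its 3 mice had 7.69, 7.91 and 8.49 in C3H/HeJ and 7.75, 8.63 and 7.92 in FVB/NJ. Of the 6 platelet markers tested, 4 were called higher in C57Bl/6J and 1, Ppbp, lower in 129S1/ImJ. Red cell markers averaged 11.45 in C57Bl/6J and 11.21 in 129S1/ImJ in GLOBINclear RNA. The other strains had 11.70 in A/J, 11.35 in C3H/HeJ, 11.29 in DBA/2J and 11.33 in FVB/NJ. Of the 3 red cell markers tested, 0 were called in either direction in C57Bl/6J or 129S1/ImJ. The part of platelets and of red cells in the Gadd45a and Ppp1r15a differences was not tested.

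Nr4a1 stood out in 129S1/ImJ in GLOBINclear RNA. The 3 mice had 4.68, 4.91 and 4.32 in GLOBINclear RNA, where the other 15 lay at 3.29 to 4.24, and 3.38, 3.36 and 3.63 in whole RNA, where the others lay at 3.32 to 3.40. All 3 mice thus lay above the rest in GLOBINclear RNA, and 1 of 3 did in whole RNA. On mouse averages 129S1/ImJ exceeded the other strains by 0.60 ± 0.09 (limma adjusted p = 0.000604). With whole RNA alone the difference was 0.09 (adjusted p = 0.529).

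**Figure D3:**
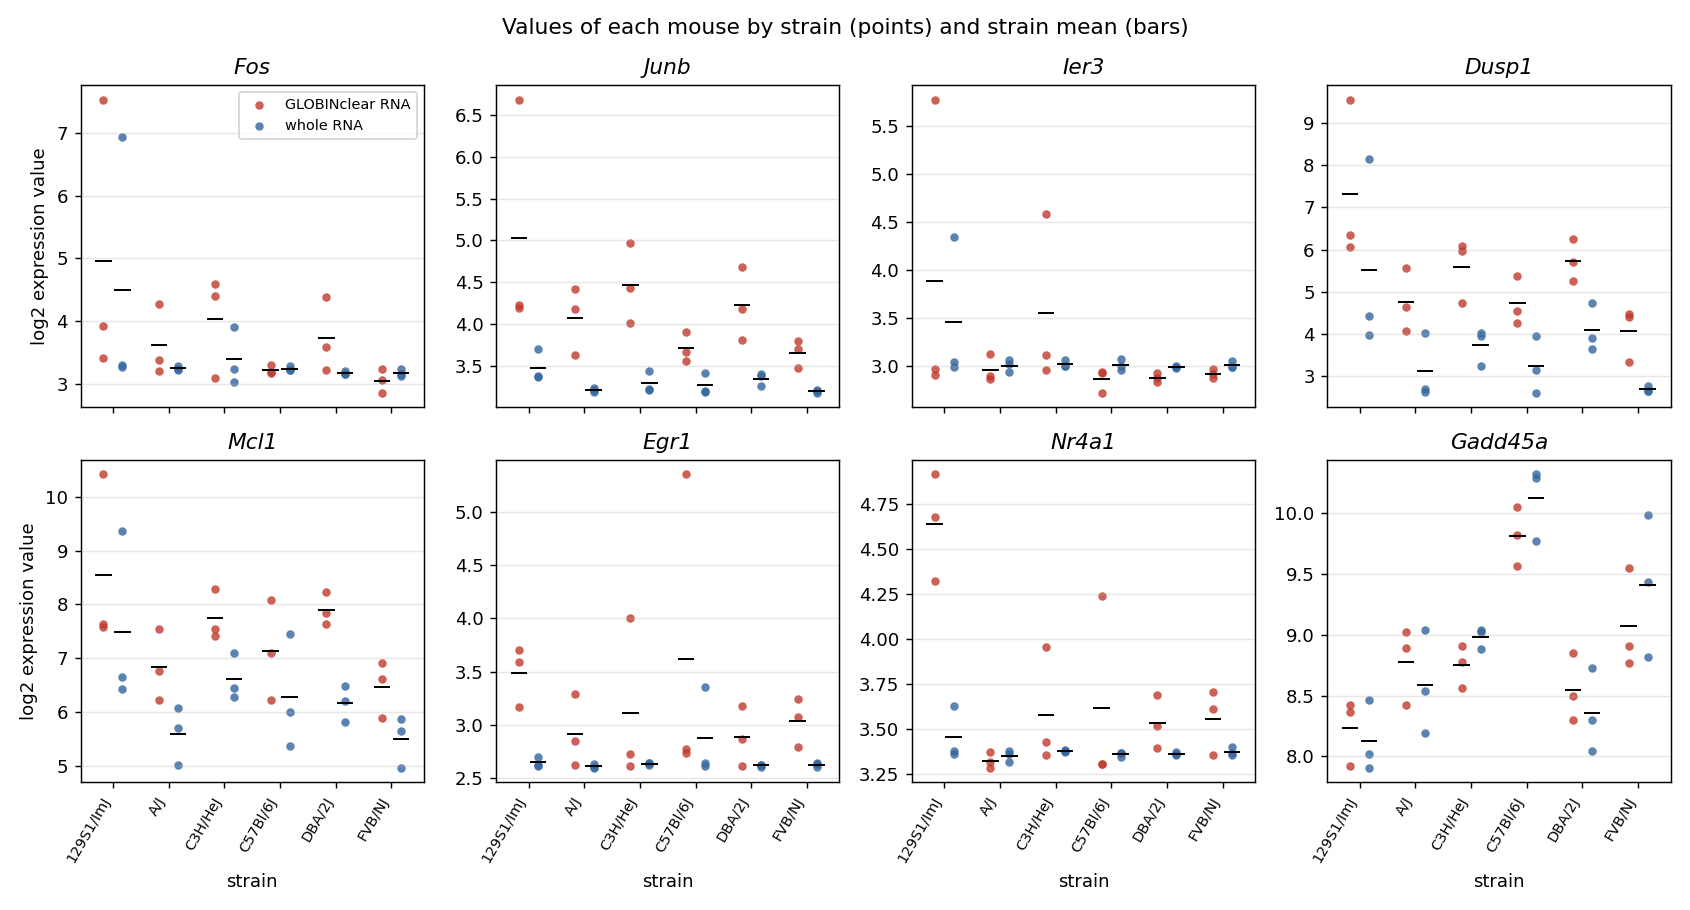
Log2 expression values (vertical) of 8 genes by strain (horizontal), with GLOBINclear RNA in red at the left and whole RNA in blue at the right of each strain; points are the 3 mice and bars their mean, and each panel has its own vertical scale. In Fos, Ier3, Dusp1 and Mcl1, and for GLOBINclear RNA alone in Junb, a single 129S1/ImJ mouse lies far above all others. In Nr4a1 all 3 lie above the rest in GLOBINclear RNA, and in Gadd45a C57Bl/6J lies highest.

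Set against the mean of the other 5, 129S1/ImJ was the strain with the most calls. It was higher for 6 of the 28 genes, against 2.76% of all tested probe sets, and lower for 2, against 3.02%. The 6 were Dusp1 (2.25 ± 0.58, limma adjusted p = 0.0319), Btg1 (1.23 ± 0.33, adjusted p = 0.0395), Ier5 (0.98 ± 0.25, adjusted p = 0.0319), Klf6 (0.98 ± 0.27, adjusted p = 0.0448), Dusp2 (0.62 ± 0.16, adjusted p = 0.0286) and Nr4a1. The 2 were Ppp1r15a and Gadd45a (-0.86 ± 0.20, adjusted p = 0.0187). The calls of Klf6 and Btg1 were lost in 20 and 15 of the 30 alternatives run, and that of Ier5 in 7. Those of Dusp1 and Dusp2 were lost in 6 each, Ppp1r15a in 5, Gadd45a in 3 and Nr4a1 in 2 of 29. The other tested Ier5 probe sets differed by 0.14 and 0.04 and did not pass. Of the other Klf6 sets, at 0.01 to 0.81, only that at 0.81 passed (limma adjusted p = 0.0254). Of the other Btg1 sets, that at 0.62 passed (adjusted p = 0.0358) and that at 0.97 did not. The difference of 129S1/ImJ was positive for 24 of the 28, a count that was not set against all tested probe sets. Without replicate 3 it turned negative for Btg2 (-0.18), Egr3 (-0.10), Ier3 (-0.04) and Jund (-0.12). For Nr4a1 and Dusp2 all 3 mice of 129S1/ImJ averaged above the other 15, as they did for 0.693% of all tested probe sets; in Dusp2 the margin was 5.85 against 5.83.

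Without 129S1/ImJ replicate 3 only Nr4a1 was called higher (0.64 ± 0.10, limma adjusted p = 0.00281), and none was called lower. These counts were not set against all tested probe sets. Dusp1 then differed by 1.03 ± 0.37 (adjusted p = 0.188), Ier5 by 0.55, Klf6 by 0.55 and Btg1 by 0.94 (adjusted p = 0.248). Dusp2, Ppp1r15a and Gadd45a kept their size, at 0.62, -1.15 and -0.88, with adjusted p of 0.101, 0.0767 and 0.0644. Fos, not called in either case, was 1.35 ± 0.53 with all mice and 0.09 ± 0.22 without that mouse.

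**Figure D4:**
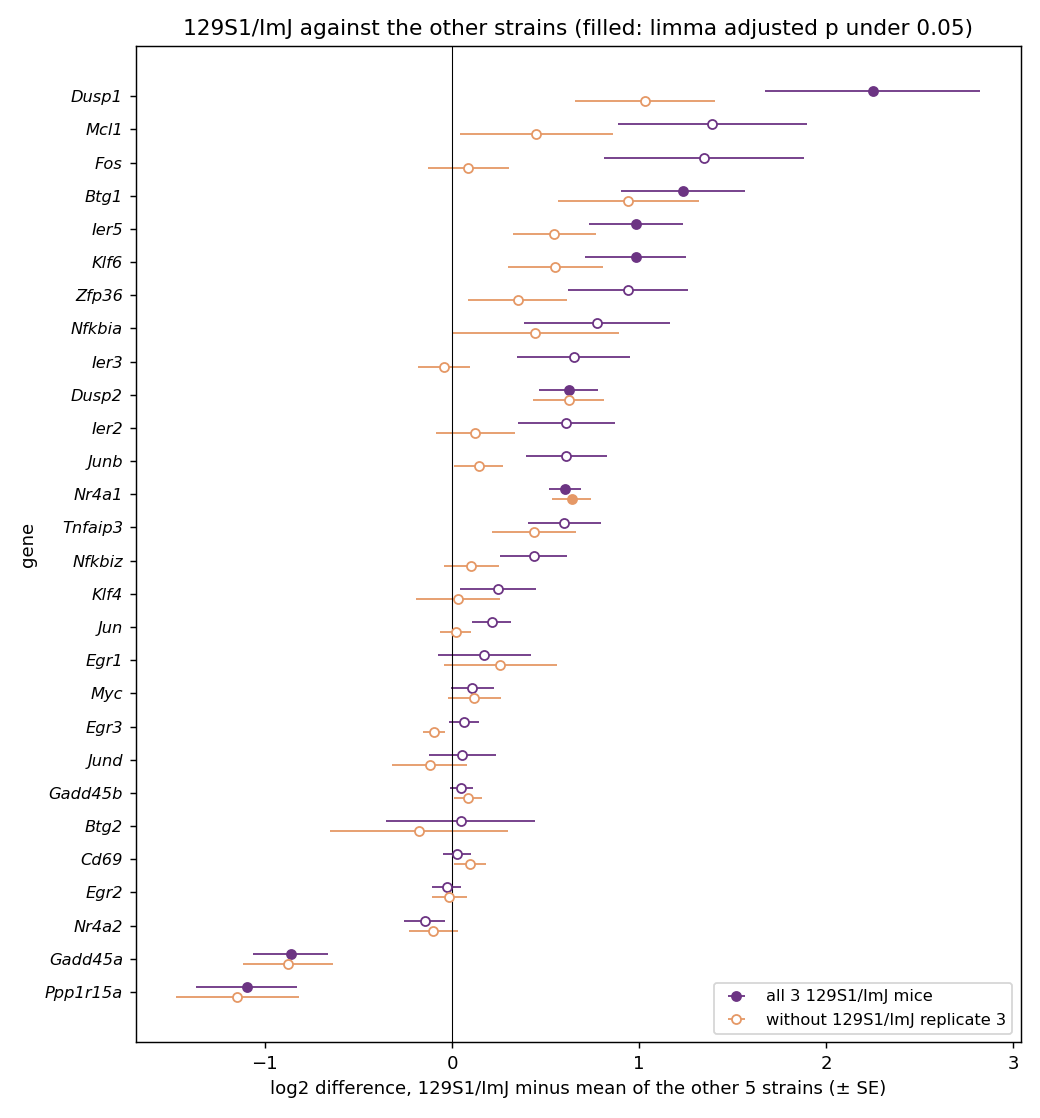
Log2 difference of 129S1/ImJ from the mean of the other 5 strains (horizontal, ± SE) for the 28 tested genes (rows), with all 3 mice (purple) and without replicate 3 (orange); filled points have a limma adjusted p under 0.05. Dusp1, Mcl1, Fos and Ier3 move toward 0 when that mouse is left out, while Nr4a1, Dusp2, Gadd45a and Ppp1r15a hardly move.

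Of the other strains, DBA/2J was lower for 1 of the 28 genes (1.11% of all tested probe sets). This was Jund, at 11.09, 10.64 and 10.83 in GLOBINclear RNA and 9.96, 9.73 and 9.25 in whole RNA, against 10.97 to 12.10 and 9.95 to 11.14 in the other strains. Only 1 DBA/2J mouse in each preparation lay within the range of the others (-0.89 ± 0.18 on mouse averages, limma adjusted p = 0.0136), and the call was lost without DBA/2J replicate 2 (adjusted p = 0.0982) or 3 (0.138), while without 129S1/ImJ replicate 3 it passed (-0.86 ± 0.17, adjusted p = 0.012). None was called higher in DBA/2J (1.03%), and none in either direction in A/J (1.55% higher, 1.69% lower), C3H/HeJ (0.751%, 0.635%) or FVB/NJ (2.76%, 0.995%). Without 129S1/ImJ replicate 3, 1 gene, Egr3, was called higher in A/J, a count not set against all tested probe sets. At an unadjusted limma p under 0.05 in either direction the counts were 5 in A/J, 0 in C3H/HeJ, 4 in C57Bl/6J, 2 in DBA/2J and 4 in FVB/NJ. The share of all tested probe sets at that limit was not counted, so these counts are not read as a result. In FVB/NJ the nearest was Btg1, which averaged 8.21 ± 0.48 in GLOBINclear RNA and 6.81 ± 0.70 in whole RNA (-1.12 ± 0.33, adjusted p = 0.0797).

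The mouse 129S1/ImJ replicate 3, singled out after its values were seen, was the highest of the 18 mice for 13 of the 28 tested genes in GLOBINclear RNA and for 13 in whole RNA. Over all tested probe sets it was the highest for 7.18% and 6.00%. It lay at least 1 log2 unit above the median of the other 17 for 15 of the 28 in GLOBINclear RNA (5.13% of all tested probe sets) and for 8 in whole RNA (2.6%). Its arrays share 1 RNA extract, so they are not independent.

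Fos was the clearest case: 7.54 in GLOBINclear RNA, where the other 17 mice lay at 2.85 to 4.59, and 6.95 in whole RNA, where they lay at 3.02 to 3.91. Dusp1 had 9.56 and 8.14 in this mouse, against at most 6.35 and 4.73 in the others. Mcl1 had 10.42 and 9.36, against at most 8.28 and 7.45. For these 3 genes the mouse stood clear of all others in both preparations.

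Ier3 had 5.78 and 4.35 in this mouse, against at most 4.58 and 3.08 elsewhere. Zfp36 had 6.33 and 5.32, against at most 5.13 and 4.55. Junb had 6.69 in GLOBINclear RNA, against at most 4.97, but 3.70 in whole RNA, against at most 3.44. Ier5, Btg1, Klf6 and Nfkbiz were also highest there in both preparations, Jun, Egr3 and Ier2 in GLOBINclear RNA alone, and Nr4a1, Tnfaip3 and Myc in whole RNA alone.

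Egr1 was not among them: this mouse had 3.16 in GLOBINclear RNA and 2.62 in whole RNA, inside the range of the others. Its values lay low for Ppp1r15a (6.89, the lowest of the 18, in GLOBINclear RNA) and near the others for Egr2 and Cd69.

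**Figure D5:**
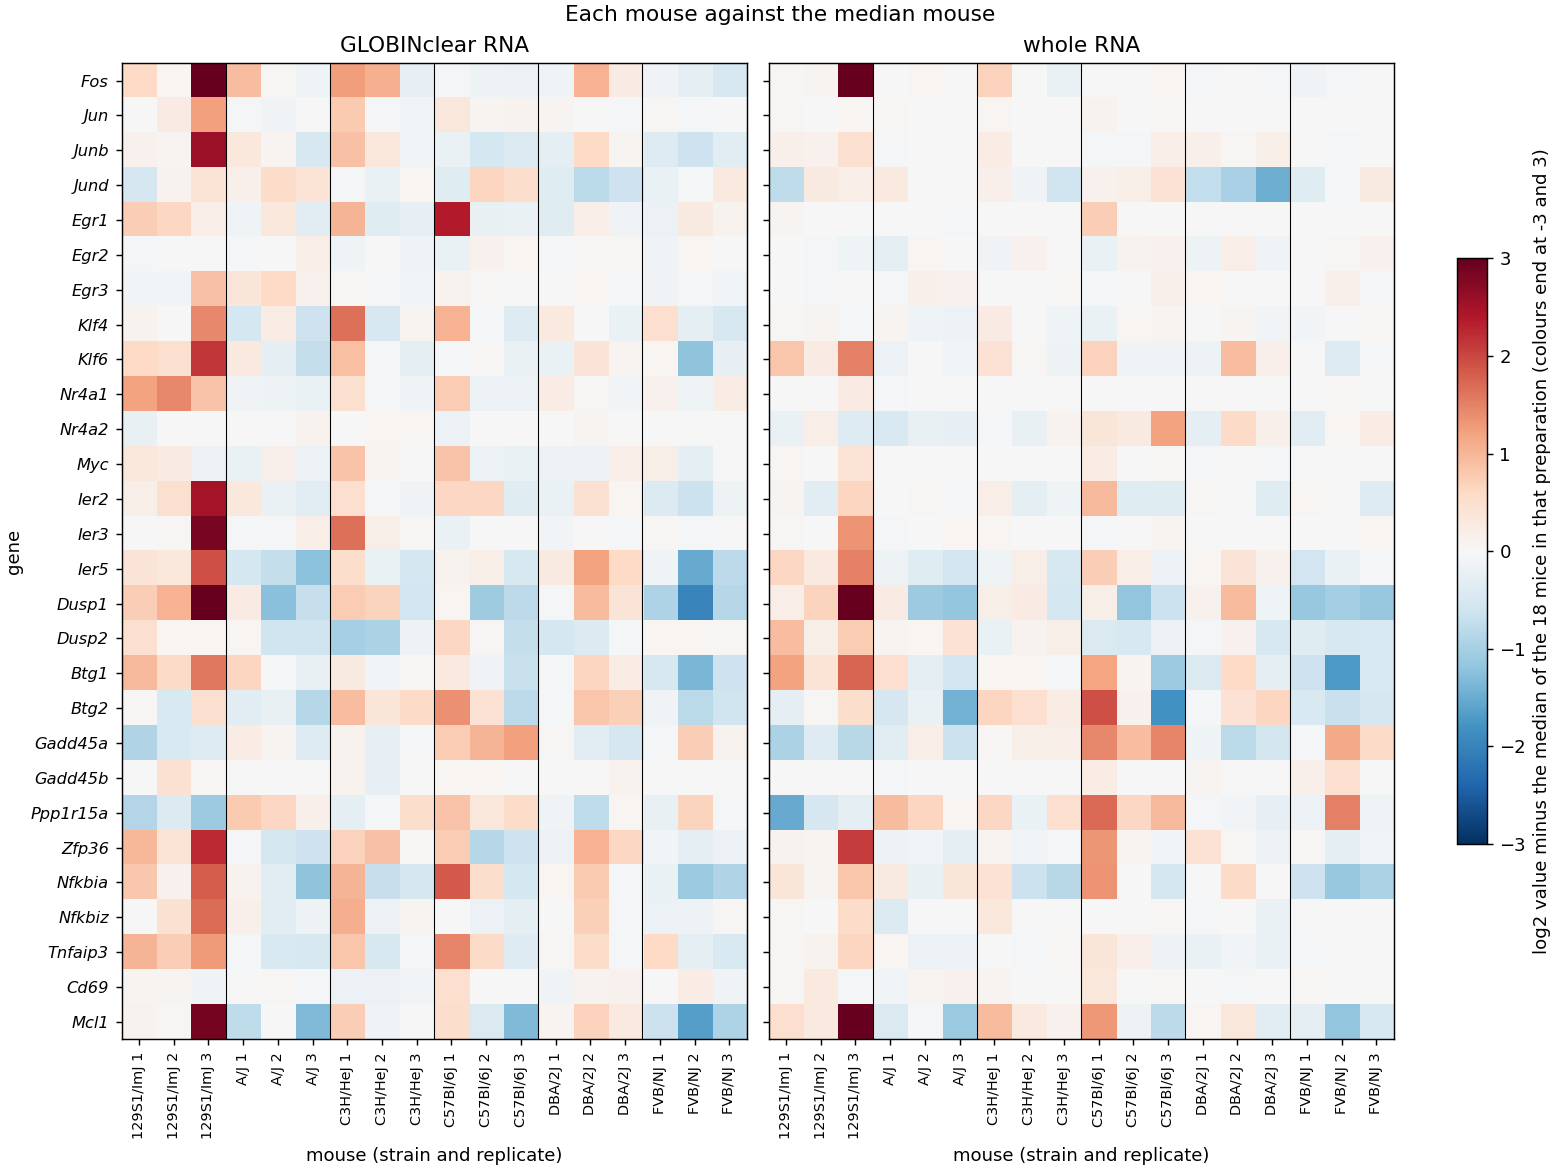
Log2 value of each mouse minus the median of the 18 mice in that preparation (colour, ending at -3 and 3), for the 28 tested genes (rows) and 18 mice (columns, by strain and replicate), GLOBINclear RNA at the left and whole RNA at the right. The column of 129S1/ImJ replicate 3 is red for Fos, Junb, Ier2, Ier3, Dusp1, Zfp36 and Mcl1, and that of C57Bl/6J replicate 1 for Egr1, Btg2 and Nfkbia.

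Markers of other cells were high in the same mouse. The 6 heart muscle markers averaged 5.44 in its GLOBINclear RNA, against 2.73 to 3.66 in the other mice, and 4.07 in its whole RNA, against 2.83 to 3.01. Of these markers 5 of 6 and 4 of 6 lay above all other mice, with Myl2 at 7.39 against at most 4.46 in GLOBINclear RNA, while Myh6, the main heavy chain of mouse heart, lay at 3.44, inside the others' range. Cd14, a receptor of monocytes and neutrophils, had 7.54, against at most 6.44. The 6 neutrophil markers averaged 8.92, against 4.88 to 6.83, and 7.57, against 3.93 to 5.86, with 4 of 6 and 5 of 6 above all other mice, such as Csf3r at 10.29 against at most 7.66. Monocyte markers averaged 7.89, against 5.86 to 8.07, and 6.66, against 4.94 to 6.54. The averages of the T cell, B cell and platelet lists lay within the others' range in both preparations, although single markers did not: Lat (8.89) lay above and Cd3g (3.37) and the platelet chemokine Ppbp (10.19) below all other mice in GLOBINclear RNA, and Ppbp (8.99) and Cd79a (3.21) below them in whole RNA. NK and cytotoxic markers averaged 3.38, against 3.43 to 6.17, and 2.58, against 2.81 to 4.83, the lowest of the 18 mice in both preparations. Heart muscle and neutrophils both moved with the immediate early genes in this 1 mouse, and their part in those values was not tested.

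The mouse C57Bl/6J replicate 1 was the highest for 7 of the 28 genes in each preparation, but it was also the highest for 14.9% and 11.5% of all tested probe sets. Egr1 had 5.35 in its GLOBINclear RNA, where the other 17 had a median of 2.87, and 3.36 in its whole RNA, where they had 2.63. Btg2 had 7.82 and 6.35, against at most 7.37 and 5.07, and Nfkbia 9.85 and 8.08, against at most 9.82 and 7.55. Here B cell markers averaged 7.77, against 4.36 to 7.45, and 6.51, against 3.43 to 6.07; T cell markers averaged 7.52, against 4.77 to 7.17, and 6.23, against 3.92 to 5.04. Their part was not tested. C3H/HeJ replicate 1 had the highest Klf4 (5.17) and the second highest Ier3 (4.58) in GLOBINclear RNA, with 6 of the 28 genes at least 1 log2 unit above the median of the others (2.7% of all tested probe sets) and 1 in whole RNA. In its GLOBINclear RNA monocyte markers averaged 8.07, the highest of the 18 mice (5.86 to 7.89 in the others), and B cell markers 7.45, the second highest. Their part was not tested.

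The other genes of the pathway were read from 4 lists. Of 22 tested upstream kinases and transcription factors 14 rose in GLOBINclear RNA and 4 fell (39.4% and 47.6% of all tested probe sets), with a median change of 0.85. Ikbkb, the kinase that releases NF-kappaB, had means of 6.03 in GLOBINclear RNA and 3.64 in whole RNA (2.39 ± 0.10, limma adjusted p = 5.78e-14), and Map2k2 and Mapk14, of the ERK and p38 cascades, rose by 1.87 ± 0.08 and 1.86 ± 0.08. Atf2, a CREB relative, differed between strains in both preparations (limma F test, adjusted p = 0.000121 and 0.000853), also without 129S1/ImJ replicate 3 (2.87e-06 and 0.000502). Of 29 tested further early response genes 20 rose (39.4% of all tested probe sets) and 5 fell (47.6%), with a median of 0.52, and the largest statistics belonged to Rhob (1.45 ± 0.07), Klf2 (1.47 ± 0.08) and Ifrd1 (1.50 ± 0.08). In this list 4 of 29 were called higher in 129S1/ImJ (2.76% of all tested probe sets), among them Sgk1, a serum- and glucocorticoid-induced kinase. Its mouse averages were 5.32, 5.18 and 5.98 in 129S1/ImJ and 3.54 to 4.62 in the other strains, so that each of the 3 mice lay above the rest (1.38, limma adjusted p = 0.000541). Without replicate 3 the difference of Sgk1 was 1.14 ± 0.21 (adjusted p = 0.00542), and 2 of 29 were called, a count not set against all tested probe sets. Dusp6, an ERK phosphatase, differed between strains in GLOBINclear RNA (limma F test, adjusted p = 0.0127, and 0.0188 without that mouse).

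Of 9 tested early response cytokines and related genes 2 rose (39.4% of all tested probe sets) and 4 fell (47.6%), with a median of -0.09. Il1b rose by 1.05 ± 0.12 in 18 of 18 mice, and it was called higher in 129S1/ImJ (1.99, limma adjusted p = 0.0482), where the mouse averages were 5.22, 5.82 and, in replicate 3, 9.17, against 3.91 to 6.46 in the others. Without replicate 3 the Il1b difference was 0.77 ± 0.32 and did not pass (adjusted p = 0.28). Ccl2 and Il1rn, both dim, fell, with changes of -0.20 ± 0.03 and -0.33 ± 0.05. The last list, drawn up around the mRNA decay role of Zfp36 and the Btg proteins, is not made of decay factors alone. Of its 16 tested genes 12 rose (39.4% of all tested probe sets) and 2 fell (47.6%), with a median of 0.52. The leading genes were Elavl1, which stabilizes AU-rich mRNAs (1.41 ± 0.08), and the deadenylases Cnot6 (1.66 ± 0.09) and Cnot7 (1.36 ± 0.08). Cnot2 and Pan3 differed between strains in GLOBINclear RNA (limma F test, adjusted p = 0.0204 and 0.0267), and without 129S1/ImJ replicate 3 Cnot2 passed (0.00794) and Pan3 did not (0.0704).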

How the data were processed

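RNA from 18 mice was measured on 36 Affymetrix arrays. The deposited values are log2 expression summaries, a scale read from the values; GCRMA, MAS5 and affy are named in the submitters' processing notes, without version or role, and joint or separate normalization of the preparations is not stated in the labels. That limits comparisons between preparations. The number of arrays limits the precision. All value columns were used (0 unused), and 0 arrays were duplicates.

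The 64 control sets were set aside, and of the other 45037 the 22518 with a mean above the median (log2 2.89) were tested. The platform's annotation gave 34945 sets 1 symbol, 932 several and 9160 none, and only the first were named. limma 3.58.1 (R 4.3.3, package data.table, version 1.17.8) was run with eBayes, an intensity trend and Benjamini-Hochberg adjustment over all tested sets, threshold 0.05. The preparation effect had each mouse as a block, since the study's design pairs arrays by mouse; strains were compared by F test within a preparation and on mouse averages. The fits were tested on simulated data. Mice of a strain are the replicates. Figures used Python 3.11.15, matplotlib 3.10.9 and pandas 2.3.3; promoters came from RefSeq, GRCm38.p6.

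Values in each strain or array were given for the 4 called genes with the largest statistic in each direction, the 6 with the smallest strain p and, per strain, the 2 with the largest statistic among those called, and from companion lists for up to 3 by statistic and 2 by strain p. Named outside this rule are genes of the mice and markers that stand apart and those whose interaction passed. The members, lists and tests were chosen with earlier results of these data known. Alternatives covered scaling, filter, trend, block, probe set choice and leaving out each mouse; leaving out 129S1/ImJ replicate 3 together with C57Bl/6J replicate 1, and leaving it out for the companion lists, were chosen after seeing the data.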

Additional observations from a re-analysis of the deposited data

Results flagged for a closer look

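For 4 genes of the companion lists the change after globin depletion differed between strains by limma's interaction test. Mapkapk2, a kinase downstream of p38, changed by 0.50 ± 0.17 (SE) in A/J and by 2.20 ± 0.17 in FVB/NJ (adjusted p = 0.00619). Cebpb, a myeloid transcription factor, changed by 1.00 ± 0.15 in A/J and by 2.21 ± 0.15 in 129S1/ImJ (adjusted p = 0.0349). Cebpd, its relative, changed by 0.70 ± 0.25 in FVB/NJ and by 2.32 ± 0.25 in 129S1/ImJ (adjusted p = 0.0303). Hbegf, a growth factor of the EGF family, changed by 1.99 ± 0.05 in C3H/HeJ and by -0.10 to -0.06 in the other 5 strains (adjusted p = 1.28e-09). Without 129S1/ImJ replicate 3 Mapkapk2 (adjusted p = 0.00941) and Hbegf (1.29e-08) passed, and Cebpb (0.0968) and Cebpd (0.0657) did not. Cebpb and Cebpd were named because of this result.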

How the results depend on the processing

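Calls of strain differences moved more than those of the preparation. Shares of all tested probe sets were not counted under the alternatives. The counts below therefore show only how the members' calls moved. With all arrays quantile normalized 12 members rose and 6 fell, and Mcl1 (-0.18) and Ier2 (-0.0485) turned. With spike-in centring, which shifts all changes up alike by more than any of these falls, 0 fell, and Cd69 (2.02), Dusp2 (1.32), Egr2 (1.67), Gadd45a (2.01), Gadd45b (2.04) and Nr4a2 (1.45) turned. With no filter 7 fell, among them the 4 dimmest genes; with a floor of log2 4, which left fewer genes to test, 10 rose and 1 fell. Leaving out each mouse gave 18 to 19 rising and 3 to 4 falling.

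The count higher in 129S1/ImJ was 3 with GLOBINclear arrays alone, 1 with whole RNA arrays alone, 1 with spike-in centring, 1 with no filter and 2 without both set-apart mice (1 to 8 over single mice left out). The count lower there was 0 with whole RNA alone, 1 with no filter and 1 without both mice (0 to 2). Leaving out both mice also gave 1 higher (Egr3) and 1 lower (Nr4a1) in A/J and 1 lower (Zfp36) in C57Bl/6J. The log2 4 floor gave 2 higher in C57Bl/6J and 1 lower in FVB/NJ (Btg1), as GLOBINclear arrays alone did for FVB/NJ (1). The count lower in DBA/2J was 0 with GLOBINclear arrays alone and 0 with the mean of all probe sets of a gene. Over single mice left out these counts were 0 to 1 (A/J higher, DBA/2J lower, FVB/NJ lower) and 1 to 2 (C57Bl/6J higher).

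The F test called 2 in GLOBINclear RNA with spike-in centring, 2 with no filter and 7 without both mice (2 to 5 over single mice), and in whole RNA 0 without both mice, 2 with no trend and 3 with the log2 4 floor (1 to 2). The interaction called 1 without both mice (Nr4a1), 1 with no trend (Mcl1) and 1 with quantile normalization within preparations (Nr4a1), and 0 to 1 over single mice. The cause was not tested.

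The pairing by mouse comes from the study's design. With no replicate block for the mouse the interaction called 1 (Nr4a1), and Fos (adjusted p = 0.3) and Myc (0.0503) lost their calls. The numbers 1 to 3 are shared by strains without a stated meaning; with the number as a replicate block 2 members were higher in 129S1/ImJ (Dusp2 and Nr4a1), and Ppp1r15a lost its F test call in GLOBINclear RNA (adjusted p = 0.0905), as in 21 of 28 alternatives in all.

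Having 3 mice a strain limits the precision, and signal over background limits it for the 14 genes at or below log2 3.5.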
